A study of Mus musculus with 12 samples.

Results

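The 8 genes described here, Mcpt8, Prss34, Cpa3, Fcer1a, Ms4a2, Gata2, Cd200r3 and Hdc, are markers of basophils and mast cells and were measured by RNA sequencing in cultured mouse bone marrow neutrophils. They were taken by name from the 29737 genes of the count table and had been chosen by their CPM (counts per 1000000 counts), which an earlier analysis had found high in the samples numbered 3. That pattern is therefore given below as a description without a test. The cells were Ly6G+ cells of wild-type mice, enriched with magnetic beads and kept in serum-containing medium for 24 h. All 12 samples were of such cells, with 3 samples in each of 4 groups. The groups received PBS as the control, 200 μM taurocholic acid (TCA), tauro-β-muricholic acid (Tβ-MCA) or 200 μM glycocholic acid (GCA). The dose of Tβ-MCA was 10 μM by the sample labels and 200 μM by the methods of the study. By title, the PBS samples carry the numbers 3, 5 and 6, and those of the bile acids 3, 4 and 5. By the methods of the study its mice were female, of the C57BL/6 strain and aged 4 to 6 weeks. Neither the labels nor these methods say whether the samples of a group, or the samples sharing a number, came from separate mice or cultures, so p-values measure the spread between these samples only.

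Basophils and mast cells carry the high-affinity IgE receptor, and its cross-linking by antigen releases histamine and proteases stored in granules. Basophils mature in the bone marrow and are rare there, whereas mast cells mature in tissues and are known for chymases and tryptases that basophils largely lack. The transcription factor GATA2 is required for both lineages and acts through GATA sites near the genes it controls. In bulk RNA, fewer cells of a type and less RNA per cell cannot be told apart.

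The promoters of the 8 genes were read to see whether the genes shared GATA sites. RefSeq, on GRCm38.p6, gave 9 promoters for the 8 genes, with 2 for Gata2, each reaching from 250 bases before to 50 bases after the start of the gene. The word AGATAA was searched, then the word AGATAG, the word TGATAA and, as a last form, the word TGATAG. They were searched on both strands, and a word on the opposite strand appears as its reverse complement. At least 1 of them was found in 6 of the 9 promoters, against 29.8% of 32851 mouse promoters of the same length. Ms4a2 and Cd200r3 held 3 words each, and 7.77% of all promoters held at least 2. Only promoters that held a word are shown, which leaves out those of Gata2 and Mcpt8, although Gata2 was high in every sample numbered 3. So were Ms4a2, Cd200r3 and Cpa3, whose promoters are shown. That of Prss34 is shown because it was high in number 3 of only some groups. Each promoter shown is written 5′ to 3′ on the strand of its gene, and capitals mark the GATA words.
Ms4a2: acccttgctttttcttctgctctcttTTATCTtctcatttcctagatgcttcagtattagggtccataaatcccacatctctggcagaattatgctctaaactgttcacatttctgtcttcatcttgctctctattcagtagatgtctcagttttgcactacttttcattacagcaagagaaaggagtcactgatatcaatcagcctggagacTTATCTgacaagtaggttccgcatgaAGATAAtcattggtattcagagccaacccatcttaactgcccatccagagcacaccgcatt
Cd200r3: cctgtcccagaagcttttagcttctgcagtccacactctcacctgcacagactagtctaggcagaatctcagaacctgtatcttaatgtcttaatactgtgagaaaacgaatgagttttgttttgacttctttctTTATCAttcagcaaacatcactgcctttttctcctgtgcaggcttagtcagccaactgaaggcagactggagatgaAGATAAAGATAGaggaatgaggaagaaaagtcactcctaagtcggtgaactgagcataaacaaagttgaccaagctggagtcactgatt
Cpa3: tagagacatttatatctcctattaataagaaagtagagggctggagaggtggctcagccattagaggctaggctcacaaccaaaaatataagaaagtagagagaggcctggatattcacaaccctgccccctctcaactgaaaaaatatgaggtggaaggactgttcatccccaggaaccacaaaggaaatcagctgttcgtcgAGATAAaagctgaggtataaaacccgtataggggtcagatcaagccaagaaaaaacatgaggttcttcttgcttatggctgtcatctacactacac
Prss34: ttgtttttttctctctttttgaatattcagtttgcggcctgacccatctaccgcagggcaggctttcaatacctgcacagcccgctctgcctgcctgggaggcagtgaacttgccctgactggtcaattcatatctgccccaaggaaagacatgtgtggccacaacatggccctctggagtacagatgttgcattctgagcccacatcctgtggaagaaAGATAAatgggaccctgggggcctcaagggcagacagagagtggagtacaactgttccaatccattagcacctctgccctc
The stretches are chr19:11623670-11623969 on the minus strand for Ms4a2, chr16:44943428-44943727 on the plus strand for Cd200r3, chr3:20242132-20242431 on the minus strand for Cpa3 and chr17:25298144-25298443 on the plus strand for Prss34. The words began 224, 37 and 11 bases before the start of Ms4a2 and 115, 39 and 33 bases before that of Cd200r3, where the last 2 are adjacent. Cpa3 held 1 word 46 bases and Prss34 1 word 31 bases before the start. Fcer1a and Hdc also held 1 word each, at 92 and 221 bases before the start, and neither Mcpt8 nor Gata2 held any in these windows. The Hdc window, chr2:126618629-126618928 on the minus strand, lies inside the counted Hdc gene, chr2:126593667-126619299. The start used for Hdc is thus that of RefSeq and not that of the counted gene. A match of letters is no evidence of binding, and no binding was measured here.

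The labelled cell type was checked with 11 neutrophil markers, which together made up 38391 to 59357 CPM. S100a9 and Ngp were the highest of them, at 17455 to 25502 CPM and 12184 to 18901 CPM, while Ly6g had only 7.54 to 21.4 CPM. The libraries held 32757389 to 41375925 counts on genes, so that 3 counts corresponded to 0.073 to 0.092 CPM. This is the limit that a count of 0 allows if each count is independent of the others. The samples numbered 3 stood apart from the others of their groups for many genes. Of 16761 genes tested, 8.21% were highest in the sample numbered 3 of all 4 groups. Tβ-MCA replicate 5 lay nearer to PBS than Tβ-MCA replicates 3 and 4 for several marker lists, as given below.

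All 8 genes passed the filter on low counts. Compared per length, Hdc was the most abundant, with a mean of 24.3 counts per kilobase of exon and 1000000 counts (RPKM) over the 12 samples and a range of 11.8 to 31.8 RPKM. Prss34 and Ms4a2 followed with mean levels of 5.95 and 5.70 RPKM, and their ranges of 2.17 to 10.8 RPKM and 4.09 to 8.12 RPKM overlapped. Cpa3, Mcpt8 and Gata2 had mean levels of 3.62, 2.82 and 2.12 RPKM. The ranges of these 3 genes overlapped with each other, and those of Cpa3 and Mcpt8 also with that of Ms4a2. Cd200r3 and Fcer1a were the least abundant at 0.644 and 0.524 RPKM and overlapped with each other, so only Hdc at the top and these genes at the bottom were apart from their neighbours in the order. Fcer1a rested on only 8 to 42 counts per sample, Mcpt8 on 46 to 177 and Hdc on 2467 to 7251, so the precision of Fcer1a was low.

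The label of the 8 genes was set against further markers. Mcpt8 and Prss34, proteases of mouse basophils, were present in every sample. Among genes typical of mast cells, 5 of 14 were analysed, and Mcpt4, Cma1 and Tph1 stayed under 3 counts in every sample. The other 9, among them the tryptase genes Tpsb2, Tpsab1 and Tpsg1, were not found by name in the count table, so they have no values here. Kit, the stem cell factor receptor, and Mitf, a transcription factor of mast cells and other lineages, were present at 2.15 and 3.08 RPKM, and Kit is also a gene of progenitor cells. The chymases Mcpt4 and Cma1 were thus at or near 0, whereas Cpa3, a protease that mast cells and basophils share, was present in every sample. Of 19 other genes of basophils, 18 were analysed and 16 passed the filter. Il13 stayed under 3 counts, and Il4, a cytokine of basophils, reached 0.0519 to 0.574 CPM. Cd63, Csf2rb and Crlf2 led this list at 244, 68.2 and 34.3 RPKM, and all of them are also expressed by other myeloid cells.

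Across samples, 4 genes were highest in the sample numbered 3 of every group, and they did so whatever the treatment. They comprised one chain of the IgE receptor, a granule protease, a surface receptor and the transcription factor. Ms4a2, the β chain of the IgE receptor, had 22.5, 13.6 and 12 CPM in PBS replicates 3, 5 and 6. In replicates 3, 4 and 5 of each bile acid it had 23.3, 14.7 and 13.5 CPM with TCA, 22.4, 13.2 and 11.9 CPM with Tβ-MCA, and 22.9, 11.3 and 11.6 CPM with GCA. The 4 samples numbered 3 thus lay close together and well above the other 8 samples, which also lay close together. 

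Cpa3, the carboxypeptidase of mast cell and basophil granules, showed the same order of samples. It had 8.32, 4.80 and 3.99 CPM with PBS, 8.31, 5.03 and 4.33 CPM with TCA, 8.05, 4.27 and 3.85 CPM with Tβ-MCA, and 8.0, 3.35 and 3.79 CPM with GCA. No sample numbered 3 overlapped with any other sample. 

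Cd200r3, an activating receptor of the CD200 receptor family on basophils and mast cells, had 6.45, 3.18 and 3.16 CPM with PBS and 5.40, 2.95 and 3.17 CPM with TCA. It had 6.34, 2.03 and 2.73 CPM with Tβ-MCA and 5.52, 2.78 and 2.75 CPM with GCA. Related receptor genes of this family lie nearby, and how reads shared between them were counted is not given in the sources used here. Gata2 had 15.0, 8.36 and 8.58 CPM with PBS, 16.1, 8.63 and 8.93 CPM with TCA, 18.6, 8.97 and 9.31 CPM with Tβ-MCA, and 15.4, 8.88 and 11.1 CPM with GCA. The samples numbered 3 were again apart from all others for both genes.

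**Figure D1:**
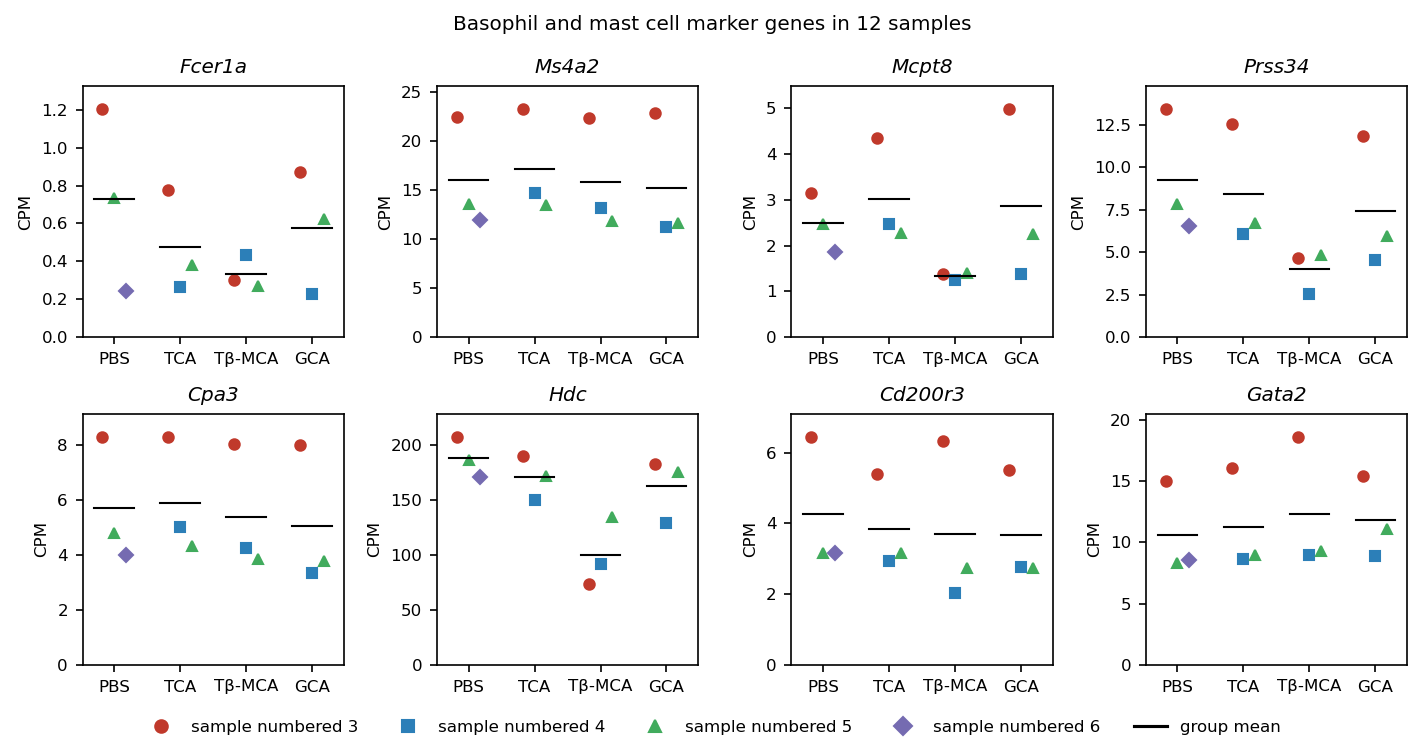
Level of each of the 8 genes in CPM (linear axis from 0) in the 12 samples, by group, with symbols for the sample number and a line at the group mean. Ms4a2, Cpa3, Cd200r3 and Gata2 were highest in the sample numbered 3 of all 4 groups, whereas Fcer1a, Mcpt8, Prss34 and Hdc were not highest in Tβ-MCA replicate 3.

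The other 4 genes followed the sample number with PBS, TCA and GCA but not with Tβ-MCA. Prss34, a tryptase-like protease of basophils also known as mMCP-11, had 13.4, 7.83 and 6.53 CPM with PBS, 12.5, 6.04 and 6.69 CPM with TCA, and 11.8, 4.53 and 5.97 CPM with GCA. With Tβ-MCA it had 4.67, 2.57 and 4.84 CPM. All 3 samples with Tβ-MCA lay below all 3 with PBS, and the sample numbered 3 was second to number 5.

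Mcpt8, a serine protease that marks mouse basophils, had 3.16, 2.47 and 1.86 CPM with PBS, 4.34, 2.47 and 2.27 CPM with TCA, and 4.99, 1.37 and 2.26 CPM with GCA. With Tβ-MCA it had 1.38, 1.24 and 1.39 CPM, and these 3 samples lay below every sample with PBS. Mcpt8 lies in a cluster of related protease genes and overlaps the microRNA gene Mir6949 on the same strand, which had a mean of 0.0168 CPM. 

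Hdc, histidine decarboxylase, makes histamine and is also expressed by immature myeloid cells. It had 208, 187 and 171 CPM with PBS, 190, 151 and 172 CPM with TCA, and 183, 129 and 176 CPM with GCA. With Tβ-MCA it had 73.8, 92.4 and 135 CPM, so that the sample numbered 3 was the lowest of its group. Every sample with Tβ-MCA lay below every sample with PBS.

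Fcer1a, the α chain that binds IgE, had 1.20, 0.735 and 0.243 CPM with PBS, 0.775, 0.266 and 0.380 CPM with TCA, and 0.873, 0.229 and 0.622 CPM with GCA. With Tβ-MCA it had 0.299, 0.432 and 0.268 CPM. The samples with Tβ-MCA overlapped with those of the other groups.

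The ratio of the sample numbered 3 to the mean of the other 2 samples of its group summarised this description. Its median over the 8 genes was 1.82 with PBS, 1.80 with TCA, 1.52 with Tβ-MCA and 2.03 with GCA. With Tβ-MCA the ratios ranged from 0.650 for Hdc to 2.67 for Cd200r3. All 8 genes were highest in number 3 with PBS, TCA and GCA, beside 38.1%, 38.3% and 35.0% of the genes tested. With Tβ-MCA it was 4 of 8, beside 34.5%. The description of these genes as highest in the sample numbered 3 of each group therefore held for 4 of the 8.

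To ask whether the bile acids altered these genes, each group was compared with PBS by edgeR's quasi-likelihood test, with p-values adjusted over all 16761 genes by the Benjamini-Hochberg method and called under 0.05. Hdc was lower with Tβ-MCA and the other 7 genes were not called, so 1 of 8 was called, beside 7.62% of all genes tested in either direction and 3.18% in the lower direction. The median log2 fold change of the 8 genes with Tβ-MCA was -0.55, against 0.004 over all genes. It fell between Ms4a2, Cpa3, Cd200r3 and Gata2, at -0.21 to 0.21, and the other genes, at -1.20 to -0.90. Of the marker lists described below, the medians were -0.89 for eosinophil, -1.35 for early granule, -0.79 for monocyte and -0.81 for B cell genes. They were -0.31 for neutrophil and -0.15 for progenitor genes. Mcpt8, Prss34 and Hdc did not overlap between the groups, which was 3 of 8 genes beside 12.8% of all genes in that direction.

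Hdc had 100.3 ± 31.2 CPM with Tβ-MCA and 189 ± 18.6 CPM with PBS (SD, n = 3 each). Its log2 fold change was -0.91 ± 0.21 (SE), 1.88-fold lower, with an adjusted p of 0.035 by edgeR. The call depended on single libraries. It was lost without PBS replicate 3, 5 or 6, with edgeR adjusted p of 0.118, 0.0926 and 0.0632, and without Tβ-MCA replicate 3 or 4, with 0.118 and 0.153. Without Tβ-MCA replicate 5 the log2 fold change was -1.18 and the edgeR adjusted p 0.000716. Without all samples numbered 3 it was -0.65, with an edgeR adjusted p of 0.279, and with only the 2 groups in the fit the edgeR adjusted p was 0.0995.

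Prss34 had 4.03 ± 1.27 CPM with Tβ-MCA and 9.26 ± 3.67 CPM with PBS (SD, n = 3 each). Its log2 fold change was -1.20 ± 0.47 (SE), and it missed the call with an edgeR adjusted p of 0.148. It was the 1 gene of the 8 that met the thresholds of the study, an unadjusted p under 0.05 (0.0296 by edgeR) and a fold change of at least 2, beside 1.86% of all genes in the lower direction. Without PBS replicate 3 the log2 fold change was -0.83, with an edgeR adjusted p of 0.365. 

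Mcpt8 had 1.34 ± 0.0822 CPM with Tβ-MCA and 2.5 ± 0.648 CPM with PBS (SD, n = 3 each), a log2 fold change of -0.90 ± 0.42 (SE) with an edgeR adjusted p of 0.211. Fcer1a had a log2 fold change of -1.11 ± 0.59 (SE) with an edgeR adjusted p of 0.258, and its 95% interval from -2.37 to 0.14 included 0. The differences of these genes were not beyond the spread between samples by this test. Of 15 alternatives, 1 called Mcpt8 and 2 called Prss34. The fit without the filter on low counts called both, with edgeR adjusted p of 0.00322 and 2.14e-12. Its SE were much smaller than in the main fit, 0.24 against 0.42 for Mcpt8 and 0.16 against 0.47 for Prss34. These p-values thus rest on a narrower estimate of the spread from the same counts, and why it was narrower was not tested. Of the 14 alternatives that tested Fcer1a, 0 called it, with adjusted p from 0.113 to 0.749.

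The 4 genes that followed the sample number in every group had group means close to those of PBS. The log2 fold changes with Tβ-MCA were -0.02 ± 0.40 (SE) for Ms4a2, -0.09 ± 0.44 for Cpa3, -0.21 ± 0.48 for Cd200r3 and 0.21 ± 0.39 for Gata2, with edgeR adjusted p from 0.801 for Gata2 to 0.981 for Ms4a2. Their 95% intervals were wide, from -0.92 to 0.87 for Ms4a2 and from -1.29 to 0.87 for Cd200r3 in this fit, which holds no term for the sample number. 

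**Figure D2:**
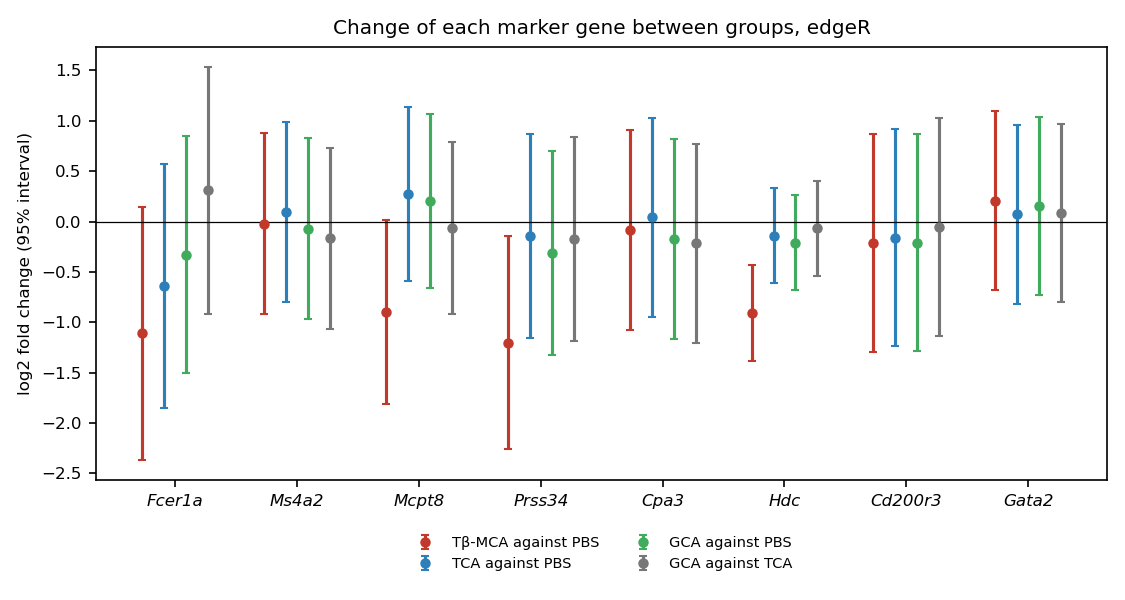
Log2 fold change of each gene from edgeR in 4 comparisons of groups of 3 samples, with bars for the 95% interval and a line at 0. The intervals of Hdc and Prss34 with Tβ-MCA lie below 0 before adjustment over all genes, and Hdc alone passed the adjusted threshold.

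With TCA and GCA, 0 of the 8 genes were called by edgeR, and 0 had an unadjusted p under 0.05. Over all genes edgeR called 0.0% with TCA and 0.0% with GCA, while 546 and 591 genes had an unadjusted p under 0.05 and DESeq2 called 1 and 0 genes. The log2 fold changes of the 8 genes against PBS ranged from -0.64 for Fcer1a to 0.27 for Mcpt8 with TCA and from -0.33 for Fcer1a to 0.20 for Mcpt8 with GCA. No gene of the 8 separated the samples of either bile acid from those of PBS, beside 4.76% lower and 4.91% higher genes with TCA and 4.83% lower and 4.71% higher genes with GCA. The 3 comparisons share the PBS samples.

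TCA and GCA are the taurine and glycine conjugates of cholic acid and were given at the same dose. They were compared directly as the 1 pair of bile acids whose doses matched by both the labels and the methods of the study. None of the 8 genes was called by edgeR or separated the samples, beside 4.19% lower and 3.81% higher genes that did, and edgeR called 0.0% of all genes, while 412 genes had an unadjusted p under 0.05 and DESeq2 called 0. For GCA against TCA, the log2 fold change of Hdc was -0.07, with a 95% interval from -0.54 to 0.40, and that of Ms4a2 was -0.17, from -1.06 to 0.73. For Prss34 it was -0.17, from -1.19 to 0.84, and for Fcer1a 0.31, from -0.92 to 1.54. The intervals reached past a 2-fold difference for 5 of the 8 genes, and the data do not show that both conjugates act alike. Tβ-MCA differs in the bile acid itself and, by the labels, in dose, and its values stand beside those of TCA and GCA without a comparison.

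The genes were next set against each other within samples, as log2 ratios of CPM to Ms4a2, a description chosen after the values had been seen. For Cpa3 the ratio stayed between -1.75 and -1.43 in all 12 samples, so these genes kept nearly the same proportion whatever the sample number or treatment. The ratio of Gata2 lay between -0.77 and -0.06. That of Cd200r3 lay between -2.70 and -1.80 and was lowest in Tβ-MCA replicate 4. For Prss34 the ratio was -0.74, -0.80 and -0.88 in PBS replicates 3, 5 and 6 and -2.26, -2.36 and -1.30 in Tβ-MCA replicates 3, 4 and 5. The first 2 of these Tβ-MCA samples lay below all others, while replicate 5 lay within the range of TCA and GCA. 

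For Mcpt8 the ratio was -2.83, -2.46 and -2.69 with PBS and -4.02, -3.40 and -3.10 with Tβ-MCA, and all 3 Tβ-MCA samples lay below the other 9, of which the lowest was GCA replicate 4 at -3.04. For Hdc it was 3.21, 3.78 and 3.83 with PBS and 1.72, 2.81 and 3.50 with Tβ-MCA, and Tβ-MCA replicate 5 lay within the range of PBS. Prss34, Mcpt8 and Hdc were therefore lower relative to Ms4a2 in Tβ-MCA replicates 3 and 4 than in any sample with PBS. Lying below every PBS sample was not limited to Tβ-MCA. For Prss34 every sample with TCA or GCA did so, at -1.32 to -0.896 against -0.88 to -0.74 with PBS. For Hdc TCA replicate 3 and GCA replicate 3 did so, at 3.03 and 3.001, and for Mcpt8 GCA replicate 4. Tβ-MCA replicates 3 and 4 lay below these TCA and GCA samples too. The ratio of Cpa3 was -1.48 and -1.62 in Tβ-MCA replicates 3 and 4, against -1.59 to -1.43 with PBS. Cd200r3 was at -1.82, -2.70 and -2.13 in Tβ-MCA replicates 3, 4 and 5, against -2.10 to -1.80 with PBS. It was thus also below every PBS sample in Tβ-MCA replicates 4 and 5, and in TCA replicates 3 and 4, at -2.11 and -2.32. Cpa3 likewise lay below every PBS sample in Tβ-MCA replicates 4 and 5, at -1.62 and -1.63. It did so too in TCA replicate 5 and GCA replicates 4 and 5, at -1.64, -1.75 and -1.62.

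**Figure D3:**
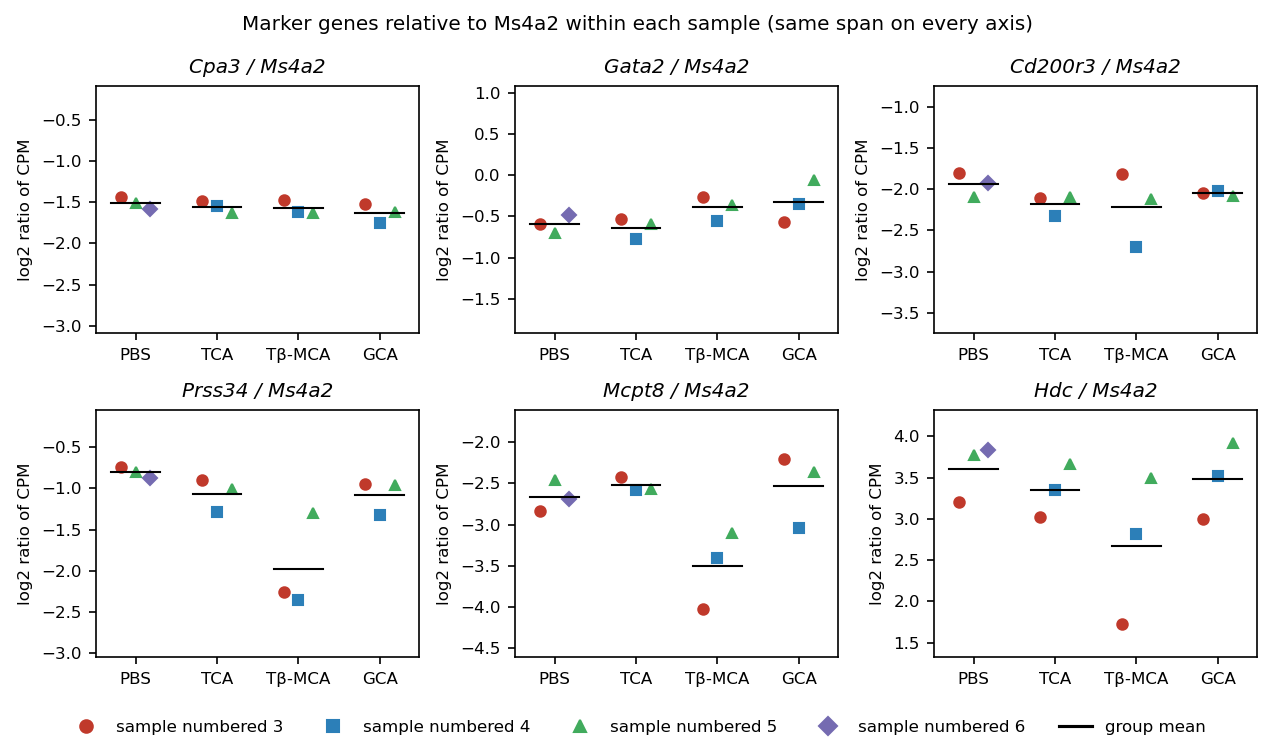
Log2 ratio of the CPM of 6 genes to that of Ms4a2 in each of the 12 samples, by group, with the same span on every axis, symbols for the sample number and a line at the group mean. Cpa3 stayed between -1.75 and -1.43 throughout, whereas Prss34, Mcpt8 and Hdc were low in Tβ-MCA replicates 3 and 4. Cd200r3 was lowest in Tβ-MCA replicate 4.

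Other genes of the same pathways were examined as lists. As for Hdc, every call with Tβ-MCA in the lists given here and below was lost without PBS replicate 3 or 5, without Tβ-MCA replicate 3 or 4 and with only the 2 groups in the fit, where edgeR called 0 of all genes and 2875 to 3599 had an unadjusted p under 0.05. Of 14 genes of the IgE receptor's γ chain and its proximal signalling, such as Fcer1g, Lyn and Plcg2 at 243, 111 and 108 RPKM, 0 were called in any of the 4 comparisons, and the median log2 fold change with Tβ-MCA was -0.07. These genes are also used by neutrophils. Among 16 other genes of basophils that were tested, Gata1, a transcription factor of the basophil, eosinophil and erythroid lineages, was called lower with Tβ-MCA (log2 fold change of -0.76 ± 0.21, SE, and edgeR adjusted p of 0.0428). Il1rl1, the IL-33 receptor, and Cyp11a1, a steroidogenic enzyme found in basophils and mast cells, were highest in the sample numbered 3 of all 4 groups. Cyp11a1 had 9.84, 6.27 and 6.82 CPM with PBS and 12.7, 8.05 and 6.80 CPM with Tβ-MCA. 

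Of 8 transcription factors that act with GATA2, Lmo2 and Gata1 were called lower with Tβ-MCA, Lmo2 with a log2 fold change of -0.27 ± 0.08 (SE) and an edgeR adjusted p of 0.0492. Spi1, Ldb1 and Lyl1 led this list at 174, 33.8 and 27.6 RPKM. Of 6 genes of histamine handling and its receptors, 3 were tested. Hnmt, which degrades histamine, rose with Tβ-MCA by 0.60 ± 0.15 on the log2 scale (SE), with an edgeR adjusted p of 0.0320, opposite in direction to Hdc. Hnmt had 14.2, 12.1 and 12.5 CPM with PBS and 23.3, 21.2 and 14.2 CPM with Tβ-MCA, where replicate 5 lay just above the highest PBS sample. Slc18a2, the transporter that loads histamine into granules, had 7.11, 5.30 and 4.64 CPM with PBS and 6.79, 5.97 and 5.30 CPM with Tβ-MCA, and was highest in the sample numbered 3 of all 4 groups.

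Markers of other cell types moved with the samples numbered 3 and with Tβ-MCA, and their part in the results was not tested. All 10 eosinophil markers were highest in number 3 with PBS, TCA and GCA, and 1 of 10 was with Tβ-MCA. Their summed level ranged from 170 to 303 CPM with PBS, 166 to 269 CPM with TCA, 67.0 to 155 CPM with Tβ-MCA and 140 to 295 CPM with GCA. Prg2, the eosinophil major basic protein, was their most abundant gene at 132 RPKM, and Siglecf, an eosinophil surface lectin, was also called lower with Tβ-MCA, where its log2 fold change was -0.93 ± 0.24 (SE) and its edgeR adjusted p 0.0326. This list was thus high in the same PBS, TCA and GCA samples as the 8 genes.

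Of 9 tested progenitor markers, 7 were highest in number 3 with PBS, TCA and GCA and 2 with Tβ-MCA, and none was called in the comparison of Tβ-MCA with PBS. The summed level of the 4 early granule genes, Elane, Mpo, Prtn3 and Ctsg, was 256 to 264 CPM with PBS, 43.7 to 198 CPM with Tβ-MCA and 43.7 CPM in Tβ-MCA replicate 3, and none of the 4 was called. The monocyte markers summed to 1126 to 1163 CPM with PBS and 333 to 877 CPM with Tβ-MCA, and Ly6c2 was the 1 of 9 that was called lower, with a log2 fold change of -0.94. The B cell markers summed to 11.2 to 18.4 CPM with PBS and 8.48 to 10.9 CPM with Tβ-MCA, and Cd79a was called lower at a log2 fold change of -0.81. Of 11 neutrophil markers, Ly6g, Mmp9, S100a8 and Camp were called lower with Tβ-MCA, at log2 fold changes of -0.99, -0.63, -0.30 and -1.14. Hdc therefore moved in the same samples as genes of several myeloid cell types.

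**Figure D4:**
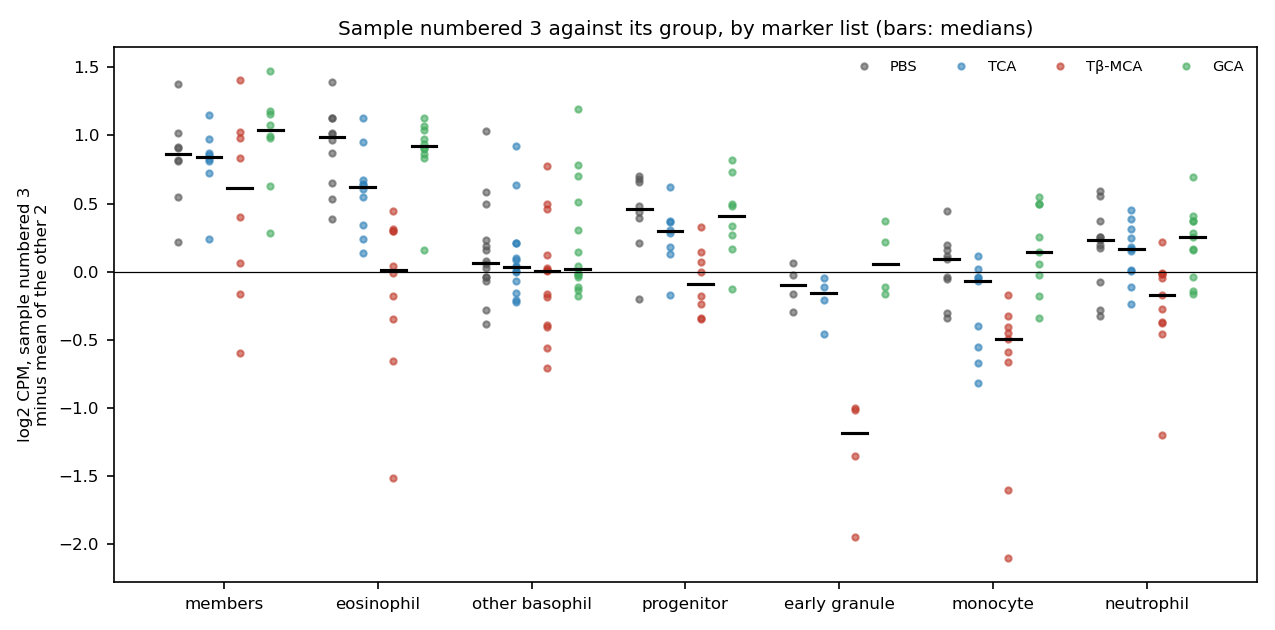
Difference in log2 CPM between the sample numbered 3 and the mean of the other 2 samples of its group, for each gene with a mean of at least 0.5 CPM in 7 marker lists, by group, with bars at the medians. The 8 genes and the eosinophil markers lie mostly above 0 with PBS, TCA and GCA, while the early granule genes lie below 0 with Tβ-MCA.

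The genes most like the 8 were those whose smallest difference, over the 4 groups, between log2 CPM of the sample numbered 3 and the mean of the other 2 samples was largest. The first 10 of them outside the 8 were Rnu3a, AC157822.1, Rn7s6, Gm24497, Grm6, Cdh1, D630045J12Rik, Stfa2, Gm5552 and Whrn, over 12 samples. With TCA, Rn7s6 had 1.52, 5.22 and 0 CPM and Gm24497 2.95, 5.12 and 0.325 CPM, so the sample numbered 3 was not the highest there, and both entered this list because the mean of log2 values was low through TCA replicate 5. Rnu3a, a small nucleolar RNA gene, had 2.98, 0.589 and 0.485 CPM with PBS and 3.05, 0.648 and 0.696 CPM with Tβ-MCA. Small non-coding RNA genes have near-identical copies, so their counts are uncertain. Cdh1, the cell adhesion protein E-cadherin, had 7.83, 3.35 and 2.27 CPM with PBS and 5.86, 2.75 and 3.29 CPM with Tβ-MCA. By this measure Cpa3, Cd200r3, Ms4a2 and Gata2 ranked 12, 15, 23 and 31 of 14679 genes, Prss34 ranked 99, Mcpt8 1393, Fcer1a 6870 and Hdc 12730.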

How the data were processed

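RNA was sequenced from 12 samples. Per the labels the authors used Trimmomatic 0.36, STAR 2.5.3a and featureCounts of Subread 1.5.1 with GRCm38 (mm10). The authors deposited counts of reads per gene and RPKM values, which are those counts per kilobase of exon and per 1000000 counts. RPKM recalculated from the counts differed by at most 1.3e-06 in relative terms. Whether pairs or single mates were counted is not given in the sources used here. A count of 2 was at least 2.93 times as frequent as a count of 1 in every sample, so low counts often came in twos. Such counts are not independent, and for them the limit of 3 counts is too low. Totals were 32757389 to 41375925 counts, and the limits given for them cover counting error only. The library kit was stranded, and the strand setting of the counting is not given in the sources used here.

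Counts were normalized by TMM in edgeR 4.0.16 (R 4.3.3), and filterByExpr by group left 16761 of 29737 genes. The groups were compared by edgeR's robust quasi-likelihood test on all 12 samples, with group as the only term. Tests were checked on simulated counts, drawn independently for each sample with no shared difference between sample numbers. The check therefore does not cover the deviation that samples of the same number share here. The alternatives were DESeq2 1.42.0, limma 3.58.1 on log2(RPKM + 1) and log2(RPKM + 0.1) with a mean of at least 0.5 RPKM, total library size, no filter, only the 2 groups compared, at least 10 counts in all samples, a replicate block, the study's thresholds, and the samples left out in turn. CPM values use TMM factors. Python 3.11.15 with matplotlib 3.10.9, pandas 2.3.3 and numpy 2.4.6 made the other tables and the plots.

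The 8 genes and all lists were chosen with earlier results of these data known. The genes named are the 8, those of each list with an adjusted p under 0.05 or among its 3 highest by mean RPKM, and the 10 most like the 8, with a prior count of 2 and a mean of at least 0.5 CPM; a few others were named after their values were seen.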

Additional observations from a re-analysis of the deposited data

How the results depend on the processing

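Hdc was lower with Tβ-MCA under all 15 alternatives and passed the adjusted threshold in 7 of them. With no filter the call count for the 8 genes was 3 and with only the 2 groups compared it was 0, against 1. The SE of Hdc was 0.08 with no filter, against 0.21 in the main fit. Over all genes, 1278 were called with Tβ-MCA, against 494 at the study's thresholds, 2079 by DESeq2, 689 by limma on log2(RPKM + 0.1), 2406 with no filter and 0 with only the 2 groups, where 3485 had an unadjusted edgeR p under 0.05. For TCA, where edgeR called 0, the counts were 78 at the study's thresholds, 1 by DESeq2 and 37 with no filter. For GCA they were 89 at the study's thresholds and 36 with no filter, and for GCA against TCA 74 and 42. The causes were not tested. Ms4a2 with Tβ-MCA changed sign to 0.03 with total library size and to 0.02 and 0.03 with limma on log2(RPKM + 1) and log2(RPKM + 0.1).

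With a replicate block, TCA against PBS had 3 calls over all genes and 1498 genes were called with Tβ-MCA, Cpa3 with TCA was at -0.01, Hdc with Tβ-MCA at -0.89 (edgeR adjusted p 0.104) and Prss34 at -1.12 (edgeR adjusted p 0.0102, a call). The SE with Tβ-MCA was 0.10 for Ms4a2, 0.15 for Cpa3, 0.12 for Gata2 and 0.18 for Cd200r3, and none of these was called. PBS replicate 6 shares its number with no sample and added nothing to this fit. Same-numbered samples deviated together by 0.06 to 0.33 (Pearson's r across genes, 15 pairs of samples, 12 over 0.1, mean 0.19), and the number 3 pairs by 0.20 to 0.33. Samples of different numbers and groups had r from -0.27 to 0.15 (39 pairs, 7 over 0.1, mean -0.07). The main fit held no term for the number, so differences between sample numbers remain in its SE.

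Leaving out each sample, or all samples numbered 3, moved the calls with Tβ-MCA between 0 and 3076 genes, 3076 without Tβ-MCA replicate 5 and 0 without PBS replicate 3 or 5 or Tβ-MCA replicate 3 or 4 (2875 to 3599 genes with an unadjusted edgeR p under 0.05), and those among the 8 genes between 0 and 1. For GCA against TCA there were 0 to 4 calls over all genes. For Tβ-MCA against PBS, the log2 fold changes that changed sign ranged Cd200r3 from -0.84 to 0.21, Cpa3 from -0.49 to 0.29, Gata2 from -0.22 to 0.53 and Ms4a2 from -0.35 to 0.30. For TCA against PBS, the log2 fold changes that changed sign ranged Cd200r3 from -0.48 to 0.27, Cpa3 from -0.28 to 0.42, Gata2 from -0.28 to 0.40, Mcpt8 from -0.07 to 0.47, Ms4a2 from -0.18 to 0.42 and Prss34 from -0.54 to 0.22. For GCA against PBS, the log2 fold changes that changed sign ranged Cd200r3 from -0.62 to 0.22, Cpa3 from -0.67 to 0.20, Fcer1a from -0.75 to 0.25, Gata2 from -0.09 to 0.48, Mcpt8 from -0.45 to 0.53, Ms4a2 from -0.48 to 0.25 and Prss34 from -0.82 to 0.05. For GCA against TCA, the log2 fold changes that changed sign ranged Cd200r3 from -0.46 to 0.27, Cpa3 from -0.71 to 0.11, Fcer1a from -0.11 to 0.84, Gata2 from -0.16 to 0.43, Hdc from -0.16 to 0.07, Mcpt8 from -0.72 to 0.28, Ms4a2 from -0.58 to 0.11 and Prss34 from -0.67 to 0.22.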

Other observations

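Some markers of further cell types were also highest in the sample numbered 3 of all 4 groups, beside 8.21% of all genes tested. Of 7 tested B cell markers these were Ms4a1, Ebf1, Pax5 and Vpreb1. Pax5, the transcription factor that sets B cell identity, had 5.68, 1.94 and 1.91 CPM in PBS replicates 3, 5 and 6 and 2.09, 1.13 and 1.61 CPM in Tβ-MCA replicates 3, 4 and 5. Ms4a1 and Ebf1 stayed below 1 CPM in all samples. Itga2b, the integrin of platelets and megakaryocytes, had 28.1, 22.2 and 24.0 CPM with PBS, and Erg, a factor of blood stem cells, had 107, 81.8 and 76.6 CPM. Siglech, a lectin of plasmacytoid dendritic cells, had 2.21, 2.06 and 1.40 CPM with PBS and 2.75, 1.57 and 2.11 CPM with Tβ-MCA. None of the 5 T and NK cell markers and none of the 3 erythroid markers tested had this order, and the summed level of each of these lists stayed below 4 CPM in every sample. By edgeR, 0 of the tested markers of megakaryocytes, T and NK cells, plasmacytoid dendritic cells and erythroid cells were called in any of the 4 comparisons. These patterns were not tested, and the sample number cannot be told apart from anything else that the samples numbered 3 share.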
